A study of Mus musculus with 4 samples.

Results

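The glucocorticoid receptor gene *Nr3c1* and 9 genes classically responsive to glucocorticoids, *Tsc22d3*, *Fkbp5*, *Per1*, *Klf9*, *Ddit4*, *Sgk1*, *Zbtb16*, *Cxcr4* and *Txnip*, were followed in bulk RNA-seq of CD24+ splenic emergency progenitors (EPs). EPs are gated as CD11c+CD117+ cells, and the study describes them as a mix of dendritic cell (DC) progenitors and conventional DCs that are already differentiated. The 10 genes were chosen by symbol because *Tsc22d3* was lower in the libraries labelled TopBP1cKO. The contrast between the groups is therefore a description for them, no P value is given for any single gene of the set, and counts of those past a threshold are given without reading anything from them. They are 10 of the 40213 symbols in the count files, and all 10 were among the 12393 genes with counts high enough to be tested.

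WT and TopBP1cKO mice both received 10 μg of Flt3L-Ig, a fusion protein that carries the DC growth factor Flt3L, by i.p. injections 3 days apart starting at day 0, and their splenic EPs were collected by cell sorting at day 9. TopBP1cKO mice carry TopBP1 fl/fl alleles and a CD11c-cre transgene, so recombination is limited to cells with a history of CD11c expression, and the study describes its WT mice as TopBP1 fl/fl littermates in another of its experiments. The methods give an age of 7 to 10 weeks for all mice. There were 2 libraries per group, and the labels do not say whether each came from a separate mouse, so P values measure only the spread between these libraries. The WT libraries held 14561583 and 15193831 counts, and those labelled TopBP1cKO held 15148032 and 15093476. With 2 libraries against 2, the smallest P value that an exact permutation test can give is 0.333.

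Glucocorticoids enter the cell and bind the receptor encoded by *Nr3c1*, which is held in a ligand-ready state by the HSP90 chaperone machinery. The bound receptor moves to the nucleus, induces genes that carry its response element and represses many inflammatory genes. *Tsc22d3* encodes GILZ, a leucine zipper protein that is among the best known induced genes of leukocytes and dampens inflammatory signalling in DCs. Several of these genes answer to other inputs as well, among them FOXO factors, the circadian clock and cell stress.

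The promoters of the genes were searched for the letters bound by the receptor and by 3 other inputs. Windows ran from 250 bases before to 50 bases after each start site in RefSeq on GRCm38.p6, and 16 windows of 8 of the 10 genes were read. *Zbtb16* and *Nr3c1* were not read. The letters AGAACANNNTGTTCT occurred in 3 of 32851 windows of this length, which is 0.00913%, and 1 of these belonged to *Sgk1*. The single hexamer AGAACA, searched on both strands and contained in the longer element, was found in 19% of all windows and in 5 of the 16, which belonged to *Cxcr4*, *Sgk1* and *Tsc22d3*. The FOXO letters GTAAACA were in 3.65% of all windows and in 2 of the 16, of *Klf9* and *Txnip*. The E-box CACGTG, to which clock factors bind, was in 7.15% of all windows and in 3 of the 16, of *Fkbp5*, *Per1* and *Sgk1*. The cyclic AMP response element TGACGTCA was in 1.79% of all windows and in 0 of the 16, and its shorter form TGACGT, contained in it, was in 7.51% and in 2 of the 16, of *Klf9* and *Per1*. A match is a run of letters and does not show a bound site. The 250 bases before a start site are given below for 4 genes, 5′ to 3′ on the strand of the gene, with 1 kind of motif per stretch in capitals. The *Sgk1* stretch (chr10:21993640-21993889, plus strand) has the receptor element in capitals and also holds, in lower case, the E-box and a further hexamer near its 5′ end, while the capitals mark an E-box in that of *Per1* (chr11:69098699-69098948, plus strand) and a FOXO site in that of *Txnip* (chr3:96557707-96557956, plus strand). The *Tsc22d3* stretch (chrX:140542669-140542918, minus strand) is shown for the gene that led to the set, and held none of these letters. It does not belong to a known start of the most abundant *Tsc22d3* transcript, XM_036161820.1, for which the annotation used gave no start. Elements outside the windows were not searched for.
Sgk1: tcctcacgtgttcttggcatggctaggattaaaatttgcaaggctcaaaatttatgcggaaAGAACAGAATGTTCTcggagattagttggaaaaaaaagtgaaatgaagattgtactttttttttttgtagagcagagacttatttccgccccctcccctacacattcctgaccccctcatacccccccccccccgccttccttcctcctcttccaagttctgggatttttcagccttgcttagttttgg
Tsc22d3: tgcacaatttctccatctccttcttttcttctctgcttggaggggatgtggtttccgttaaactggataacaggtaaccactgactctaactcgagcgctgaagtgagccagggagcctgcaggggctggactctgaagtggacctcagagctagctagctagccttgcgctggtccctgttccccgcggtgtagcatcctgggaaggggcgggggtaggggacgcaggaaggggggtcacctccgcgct
Per1: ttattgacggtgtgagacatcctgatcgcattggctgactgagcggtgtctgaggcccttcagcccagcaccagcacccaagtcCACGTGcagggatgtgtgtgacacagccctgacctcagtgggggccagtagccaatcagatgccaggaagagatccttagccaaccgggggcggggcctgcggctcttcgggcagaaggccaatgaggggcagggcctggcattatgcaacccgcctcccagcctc
Txnip: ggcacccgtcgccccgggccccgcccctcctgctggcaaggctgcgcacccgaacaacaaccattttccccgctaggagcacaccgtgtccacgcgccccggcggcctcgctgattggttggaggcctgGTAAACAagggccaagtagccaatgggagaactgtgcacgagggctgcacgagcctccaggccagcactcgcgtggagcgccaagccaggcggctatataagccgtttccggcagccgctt
The element of *Sgk1* lay at chr10:21993701-21993715. It ended 175 bases before the start site of this window and 951 bases before 21994666, where the annotation of GRCm38 starts the transcript that took most of the *Sgk1* counts in every library.

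*Topbp1* itself was examined before the set, as the gene targeted in the TopBP1cKO mice. It had 77.9 and 75.6 CPM (counts scaled by TMM effective library sizes) in the WT libraries, 50.7 in replicate 1 labelled TopBP1cKO and 82.7 in replicate 2. The level was thus lower than WT in replicate 1 and above both WT libraries in replicate 2, which taken alone goes against that label. The log2 fold change was −0.20 (SE 0.21; FDR = 0.774 in the quasi-likelihood test of edgeR). Which exons are deleted is not given in the sources used here, so reads from a deleted allele may still be counted. The cell cycle genes listed below summed to 1790 CPM in replicate 2, against 624 in replicate 1 and 514 and 481 in WT. Neutrophil genes summed to 2213 and 2200 CPM in replicates 2 and 1, against 797 and 749 in WT. The bearing of either on the *Topbp1* level or the label was not tested. Replicate 2 also stood apart over the transcriptome. Across 7751 genes with a mean of at least 200 counts, the root mean square difference in log2 CPM was 0.166 between the WT libraries and 0.353 between the libraries labelled TopBP1cKO. Replicate 1 differed from the WT libraries by 0.227 and 0.210, and replicate 2 by 0.410 and 0.423. The fold changes of the 10 genes are therefore also given without each of these libraries.

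*Tsc22d3* had the lowest fold change of the 10 genes with all 4 libraries, and *Fkbp5* was lower (−0.59 against −0.43) without replicate 2 labelled TopBP1cKO. The *Tsc22d3* level was 331 and 310 CPM in the WT libraries, 240 CPM in replicate 1 labelled TopBP1cKO and 95.7 CPM in replicate 2. The WT libraries lay close together, both other libraries were below them, and replicate 2 was the lowest, at 29.9% of the WT mean against 74.9% in replicate 1. The means were 320 ± 15.0 and 168 ± 102 CPM (SD, n = 2), a log2 fold change of −0.93 (SE 0.35). It was −1.74 without replicate 1 and −0.43 without replicate 2, so the direction was the same with either library and the size was not. In bulk RNA, fewer cells of a type and less RNA per cell cannot be told apart.

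**Figure D1:**
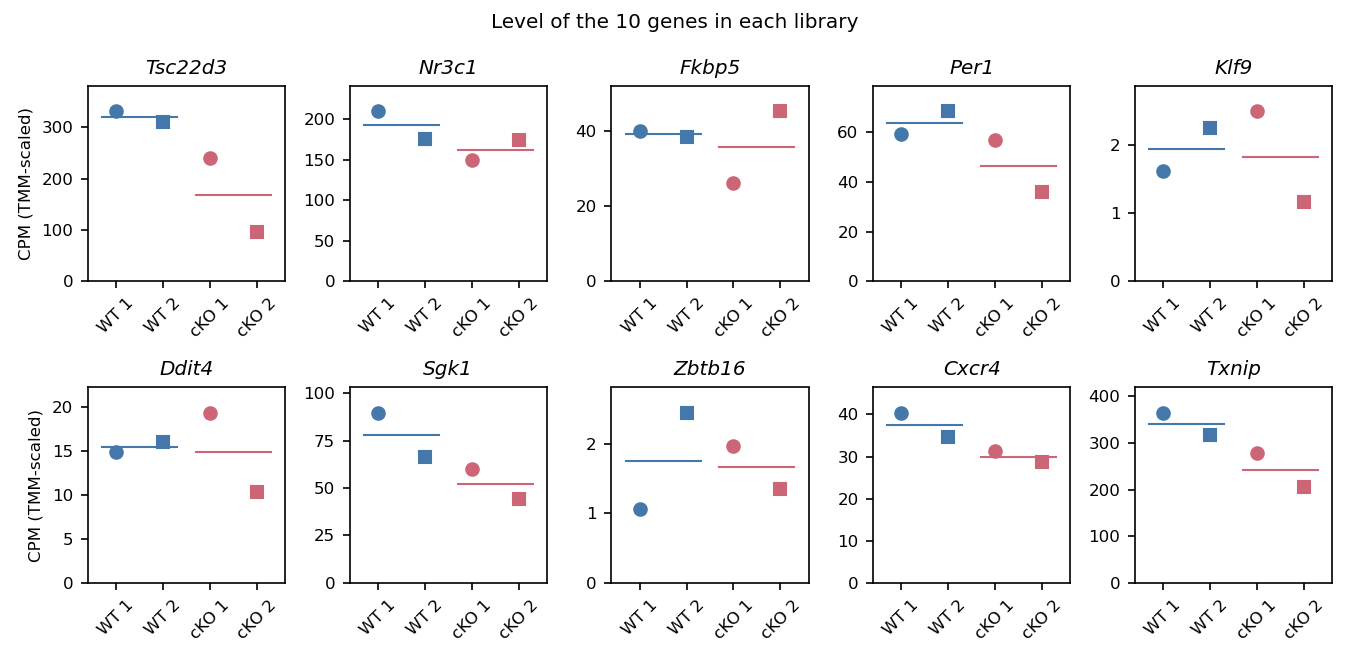
Level of each of the 10 genes in CPM (TMM-scaled, linear axis from 0) in the 2 WT libraries (blue) and the 2 libraries labelled TopBP1cKO (red, cKO on the axis), 1 point per library, with a horizontal line at each group mean. *Tsc22d3* is at 331 and 310 CPM in WT and at 240 and 95.7 CPM in the libraries labelled TopBP1cKO, whereas the libraries overlap for *Fkbp5*, *Klf9*, *Ddit4* and *Zbtb16*.

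The receptor gene *Nr3c1* had 209 and 176 CPM in the WT libraries and 150 and 174 CPM in those labelled TopBP1cKO. The groups were separated by a hairline, between 176 CPM in WT replicate 2 and 174 CPM in replicate 2 labelled TopBP1cKO, and they overlapped when CPM were computed from library totals, at 175 and 179. The means were 192 ± 23.9 and 162 ± 17.4 CPM (SD, n = 2), with a log2 fold change of −0.25 (SE 0.14). It was −0.14 without replicate 1 labelled TopBP1cKO and −0.37 without replicate 2, the latter close to the −0.43 of *Tsc22d3*. Without WT replicate 1 it was −0.12. The library with the least *Nr3c1* was replicate 1, not replicate 2, in which *Tsc22d3* was lowest.

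*Fkbp5* encodes a co-chaperone that is induced by glucocorticoids and lowers the affinity of the receptor for hormone, closing a negative feedback loop. Its level was 40.1 and 38.6 CPM in the WT libraries, 26.3 CPM in replicate 1 labelled TopBP1cKO and 45.3 CPM in replicate 2. Replicate 2 had the highest *Fkbp5* and the lowest *Tsc22d3* of the 4 libraries, and the groups overlapped. The log2 fold change was −0.14 (SE 0.24) and changed sign with the library, from −0.59 without replicate 2 to 0.20 without replicate 1.

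Among the induced genes, *Sgk1*, *Per1*, *Txnip* and *Cxcr4* were lower than both WT libraries in both libraries labelled TopBP1cKO. *Sgk1*, a serum- and glucocorticoid-regulated kinase and the gene with the element printed above, had 89.7 and 66.5 CPM in the WT libraries and 60.2 and 44.4 CPM in those labelled TopBP1cKO. Its log2 fold change was −0.58 (SE 0.20), and the WT libraries lay further from each other than the lower of them did from replicate 1 labelled TopBP1cKO. *Per1*, a repressor of the circadian clock with an acute response to glucocorticoids, had 59.4 and 68.4 CPM in WT, 57.1 CPM in replicate 1 and 36.0 CPM in replicate 2. Replicate 1 was close to WT, and the log2 fold change of −0.46 (SE 0.21) became −0.17 without replicate 2 and −0.83 without replicate 1.

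*Txnip*, an alpha-arrestin that binds thioredoxin and restrains glucose uptake, had 365 and 316 CPM in WT and 278 and 206 CPM in the libraries labelled TopBP1cKO, a log2 fold change of −0.49 (SE 0.17). *Cxcr4*, the receptor for CXCL12 that holds progenitors in the marrow, had 40.3 and 34.7 CPM in WT and 31.2 and 28.7 CPM in the other libraries, a log2 fold change of −0.32 (SE 0.15). *Cxcr4* was the gene of this group whose libraries labelled TopBP1cKO were most alike, with log2 fold changes of −0.27 without replicate 2 and −0.39 without replicate 1, though leaving out WT replicate 1 or 2 gave −0.21 and −0.44. For *Txnip* the values without replicates 2 and 1 labelled TopBP1cKO were −0.30 and −0.72. For *Sgk1* they were −0.38 and −0.82, with −0.35 without WT replicate 1.

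*Ddit4*, *Klf9* and *Zbtb16* showed no separation of the groups. *Ddit4*, an inhibitor of mTORC1 signalling also known as REDD1, had 14.8 and 16.0 CPM in WT, 19.3 CPM in replicate 1 labelled TopBP1cKO and 10.3 CPM in replicate 2. *Klf9*, a Krüppel-like transcription factor and feedback regulator of glucocorticoid responses, had 23 and 34 counts in WT, 38 in replicate 1 and 18 in replicate 2. *Zbtb16*, which encodes the transcription factor PLZF, had 15 and 37 counts in WT, 30 in replicate 1 and 21 in replicate 2. In *Ddit4* and *Klf9*, replicate 1 was the highest library and replicate 2 the lowest, and in *Zbtb16* the widest gap was between the WT libraries. The log2 fold changes were −0.06 (SE 0.29), −0.09 (SE 0.48) and −0.08 (SE 0.51), and each changed sign with the library. Without replicate 1 labelled TopBP1cKO they were −0.58, −0.74 and −0.38, and without replicate 2 they were 0.31, 0.35 and 0.15. *Klf9* and *Zbtb16* also changed sign between the fits without WT replicate 1 (−0.30 and −0.56) and without WT replicate 2 (0.16 and 0.63). Counts this low for *Klf9* and *Zbtb16* cannot show a difference of moderate size.

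**Figure D2:**
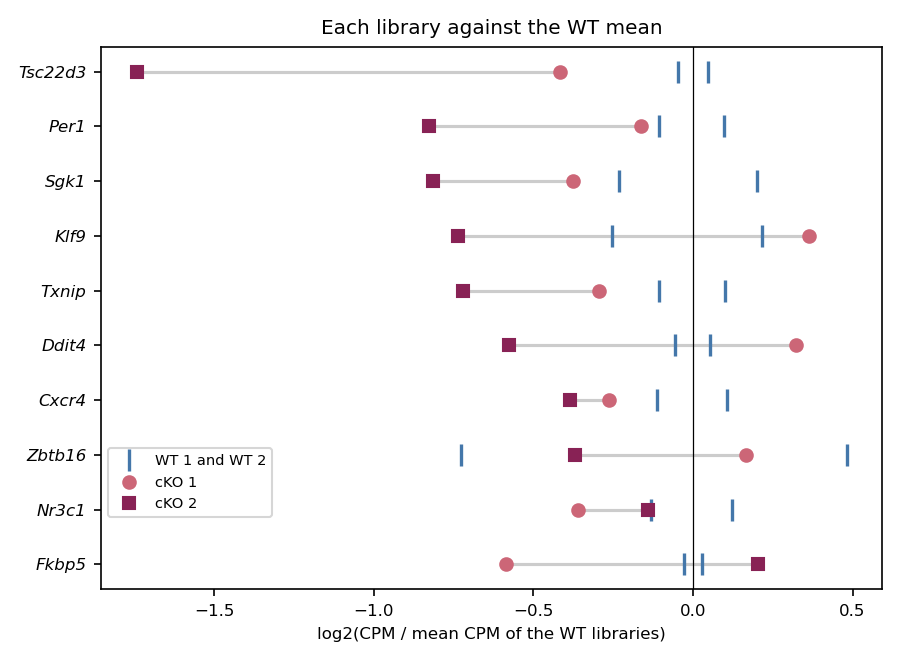
Log2 ratio of each library to the WT mean of the gene, for the 10 genes ordered by replicate 2 labelled TopBP1cKO. Blue ticks are the 2 WT libraries, the circle is replicate 1 and the square replicate 2 labelled TopBP1cKO, and a grey line joins these 2. Replicate 2 lies left of replicate 1 for 8 of the 10 genes, at −1.74 for *Tsc22d3* against −0.42 in replicate 1, while for *Fkbp5* the 2 libraries fall on opposite sides of the WT mean.

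Counted together, 10 of the 10 genes had a fold change below 0, with a median log2 fold change of −0.29 against 0.01 over all genes tested. The median was −0.65 without replicate 1 labelled TopBP1cKO and −0.29 without replicate 2. In 6 of the 10, both libraries labelled TopBP1cKO were below both WT libraries, and 0 were above, where 20.8% and 22.8% of all tested genes were. By library totals, 5 were below. At FDR < 0.05, 0 of the 10 were called, as against 0.105% of all tested genes (0.0242% lower and 0.0807% higher). At an unadjusted P < 0.05, 3 were lower and 0 higher, as against 3.77% and 6.95% of all tested genes. DESeq2, the edgeR likelihood ratio test and limma-voom also called 0 of them, as against 137, 234 and 13 of the 12393 tested genes. As *Tsc22d3* led to the choice of the set, nothing is read from these counts.

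The reads of a gene were deposited transcript by transcript, which allowed a look at how the *Tsc22d3* counts were divided. Of 9 *Tsc22d3* transcripts listed, 7 had counts. The most abundant (XM_036161820.1) had 3341 and 3345 counts in WT and 2471 and 1127 in the libraries labelled TopBP1cKO, which was 71.3, 71.4, 67.6 and 76.1% of the counts of the gene. Its own log2 fold change of −0.96 was close to that of the gene. The second (NR_122039.2) had 776 and 931 counts in WT, 826 in replicate 1 and 203 in replicate 2, without scaling, so replicate 2 stood well below the others. In GRCm38 the printed *Tsc22d3* stretch lies directly before the start of its version NR_122039.1. Another (XM_006528500.4) had 431 and 391 counts in WT and 0 in both other libraries, while XM_006528505.5 had 87, 0, 173 and 137 counts. Transcripts of a gene overlap, so how reads are divided among them depends on the counting, and whole transcripts at 0 in 1 library and well counted in another were also seen within a group. For *Nr3c1*, NM_001361210.1 had 683 counts in WT replicate 1, 0 in WT replicate 2, and 640 and 665 in the libraries labelled TopBP1cKO, and the leading transcript held from 32.2 to 71.7% of the gene. For *Sgk1*, in contrast, NM_011361.3 held 91.5% or more of the counts in every library, at 1166, 973, 839 and 629. *Txnip* was split between NM_001009935.2, with 2809, 2731, 2389 and 1911 counts, and NM_023719.2, with 2351, 2050, 1841 and 1282, in the order WT replicates 1 and 2 and TopBP1cKO replicates 1 and 2. Both *Txnip* transcripts were thus lower in each library labelled TopBP1cKO than in either WT library before any scaling. *Fkbp5*, *Klf9* and *Ddit4* have 1 transcript each in the files.

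**Figure D3:**
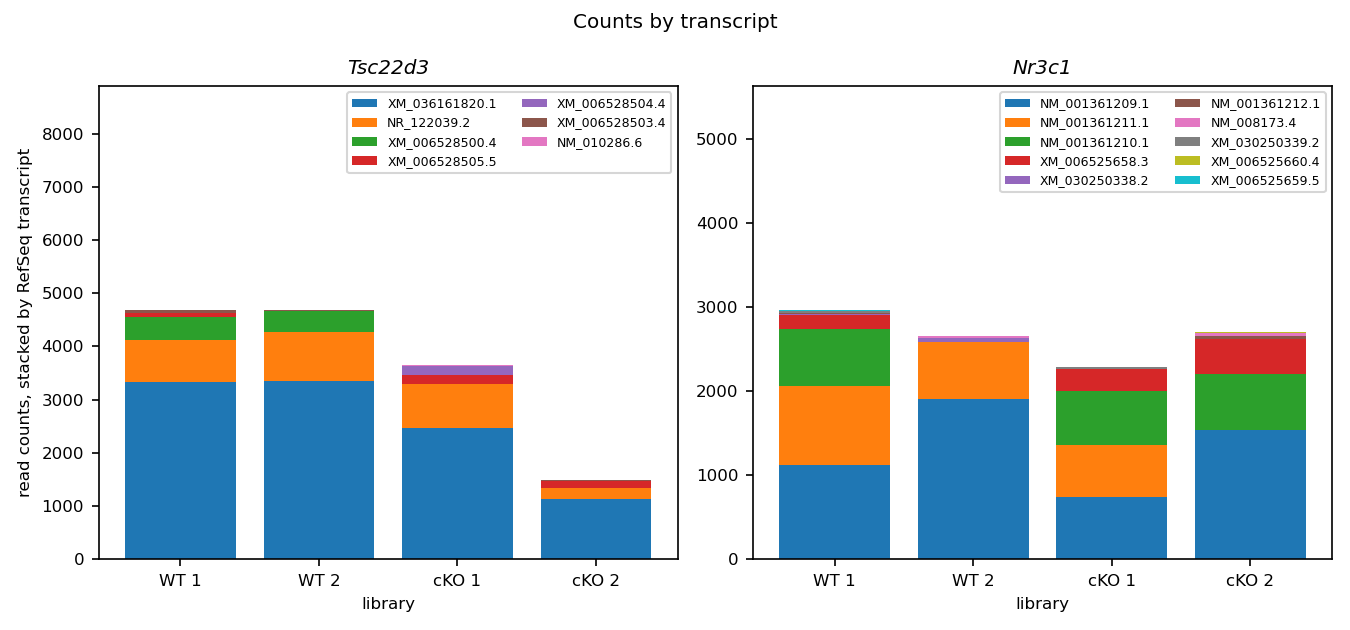
Read counts of *Tsc22d3* (left) and *Nr3c1* (right) in each library, not normalized, stacked by RefSeq transcript, with transcripts ordered by their total. The main *Tsc22d3* transcript (blue) makes up 67.6 to 76.1% of each bar, the lowest of which stands at 1480 counts, whereas the *Nr3c1* bars have like heights and uneven parts.

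Genes whose pattern over the 4 libraries was nearest to that of *Tsc22d3* were sought among 7750 others with a mean of at least 200 counts, by the root mean square difference of log2 CPM after centring each gene on its own mean. The nearest was *Hspa1b* (0.0442), an inducible HSP70 chaperone, with 2080, 1809, 1491 and 568 CPM in WT replicates 1 and 2 and TopBP1cKO replicates 1 and 2. *Pik3ip1* (0.102), a negative regulator of PI3K, had 52.6, 46.3, 32.1 and 13.0 CPM. *Hspa1a* (0.115), the near-identical partner of *Hspa1b*, had 1551, 1295, 984 and 359 CPM, and as reads are hard to divide between the HSP70 genes, their sum of 3631, 3104, 2475 and 926 CPM is the safer value. *Fgfr1* (0.115), a receptor for fibroblast growth factors, had 151, 139, 91.8 and 37.3 CPM, and *Vwf* (0.162), von Willebrand factor, had 37.4, 40.0, 34.7 and 14.4 CPM. All 5 were lowest in replicate 2 labelled TopBP1cKO, and none of the other 9 genes of the set was among them. With 4 libraries the likeness is a description of these libraries.

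**Figure D4:**
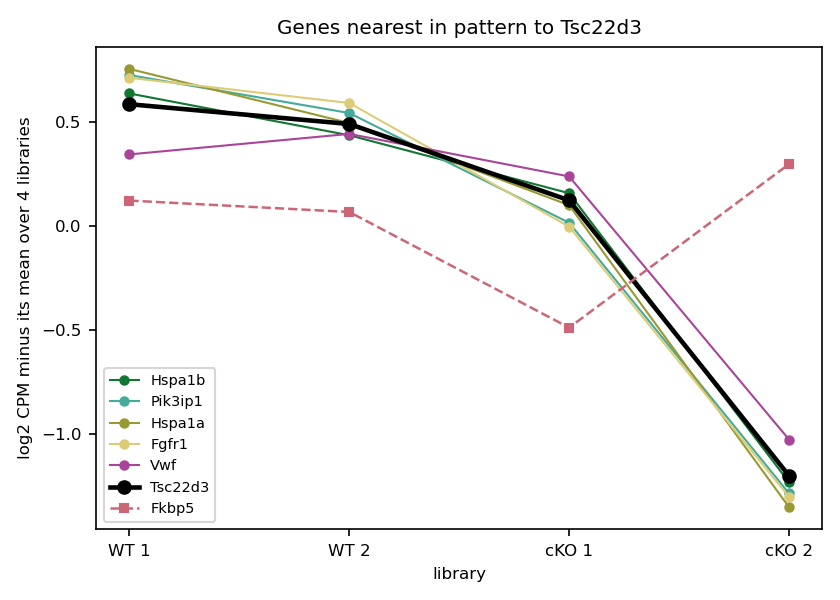
Log2 CPM of *Tsc22d3* (black), the 5 genes nearest to it in pattern (thin lines) and *Fkbp5* (dashed), each centred on its own mean over the 4 libraries, with 1 point per library and lines drawn to guide the eye only. The 5 genes follow *Tsc22d3* within a root mean square difference of 0.0442 to 0.162, while *Fkbp5* is highest in the library where *Tsc22d3* is lowest.

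Around the set, 104 genes of the receptor machinery and of pathways that share these targets were examined, and 87 of them were tested. At FDR < 0.05, 1 was called, *Fosb*, as against 0.105% of all tested genes. The number was 6 by DESeq2 (*Dusp1*, *Fos*, *Fosb*, *Jun*, *Pik3ip1* and *Rhob*), 5 by the edgeR likelihood ratio test (these without *Pik3ip1*) and 1 by limma-voom. Over all 12393 tested genes these tools called 137, 234 and 13. The same totals belong beside the counts by tool for the lists below.

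Of 18 genes of the receptor machinery, 16 were tested and 0 passed FDR < 0.05. The median log2 fold change was 0.07 against 0.01 over all genes, or 0.19 without replicate 1 and −0.04 without replicate 2 labelled TopBP1cKO. The chaperones and co-chaperones of the receptor differed among themselves. *Hsp90ab1*, *Hspa8* and *Bag1* had log2 fold changes of 0.05, 0.06 and −0.01 (FDR of at least 0.927). *Hsp90aa1*, which encodes inducible HSP90, had 556 and 524 CPM in WT, 608 CPM in replicate 1 labelled TopBP1cKO and 950 CPM in replicate 2, a log2 fold change of 0.53 (SE 0.21; FDR = 0.434). *Stip1*, which links HSP70 to HSP90, had 99.3, 106, 123 and 202 CPM (log2 fold change 0.67, SE 0.22; FDR = 0.356), and *Fkbp4*, the co-chaperone that favours nuclear entry of the receptor, had 77.2, 82.8, 91.1 and 134 CPM (log2 fold change 0.49, SE 0.18; FDR = 0.404). These 3 were the genes of the list at an unadjusted P < 0.05, all of them higher. The shares of all tested genes were 6.95% higher and 3.77% lower. In each of the 3 the high library was replicate 2, so these chaperone genes were highest in the library where *Hspa1a* and *Hspa1b* were lowest. *Hspa8* was also highest in that library, at 5466 CPM. Without replicate 2 labelled TopBP1cKO, the log2 fold changes of *Hsp90aa1*, *Stip1* and *Fkbp4* were 0.16, 0.25 and 0.18. *Hsd11b1*, which regenerates active hormone in the cell, had 2.54, 2.05, 3.61 and 3.88 CPM (FDR = 0.497). *Hsd11b2*, which inactivates it, and the mineralocorticoid receptor *Nr3c2* were below the filter, with at most 0.388 CPM in any library. The coactivators *Ncoa1*, *Ncoa2* and *Ncoa3* had log2 fold changes of −0.12, −0.20 and −0.05 (FDR of at least 0.636).

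Other glucocorticoid-induced genes were mixed. Of 23 listed, 19 were tested, 0 passed FDR < 0.05 and 3 were lower and 0 higher at an unadjusted P < 0.05 (3.77% and 6.95% of all tested genes). Their median log2 fold change was −0.01, or −0.19 without replicate 1 and 0.13 without replicate 2 labelled TopBP1cKO. *Dusp1*, a phosphatase that shuts off MAP kinases, had 164, 138, 90.2 and 57.2 CPM (log2 fold change −1.03, SE 0.21; FDR = 0.307). *Rhob*, a small GTPase, had 30.5, 27.2, 16.5 and 10.7 CPM (log2 fold change −1.08, SE 0.23; FDR = 0.307). *Zfp36*, which destabilizes inflammatory mRNAs, had 390, 443, 348 and 241 CPM (log2 fold change −0.50, SE 0.18; FDR = 0.399). *Dusp1* and *Rhob* were lower in both libraries labelled TopBP1cKO, and DESeq2 called these 2 genes, at FDR = 0.000771 and 0.0122, as did the likelihood ratio test. By contrast *Nfkbia*, the inhibitor of NF-κB, had 183, 208, 219 and 172 CPM and *Anxa1*, annexin A1, had 317, 267, 299 and 285 CPM, with log2 fold changes of −0.01 (SE 0.15) and 0.00 (SE 0.13). *Per2*, a clock repressor like *Per1*, had 3.25, 3.37, 3.81 and 6.53 CPM (log2 fold change 0.64, SE 0.34; FDR = 0.557). Without replicate 2 labelled TopBP1cKO, the log2 fold change of *Per2* was 0.19 and that of *Zfp36* −0.27.

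The inflammatory genes that glucocorticoids repress gave no difference past the test. Of 13 listed, 9 were tested, 0 passed FDR < 0.05 and 0 an unadjusted P < 0.05, and the median log2 fold change was −0.02 (−0.05 and −0.04 without replicates 1 and 2 labelled TopBP1cKO). *Il1b* had 25.8, 27.7, 26.1 and 25.1 CPM, *Tnf* 8.55, 8.60, 8.99 and 9.64 CPM, and the costimulatory gene *Cd86* 274, 266, 232 and 246 CPM (log2 fold change −0.18, SE 0.11; FDR = 0.617).

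FOXO factors and their targets, which also act on genes such as *Txnip*, had no gene past the test. All 16 listed genes were tested, and 5 were lower and 0 higher at an unadjusted P < 0.05 (3.77% and 6.95% of all tested genes). Their median log2 fold change was −0.23, or −0.31 without replicate 1 and −0.11 without replicate 2 labelled TopBP1cKO. In 8 of the 16 both libraries labelled TopBP1cKO were below both WT libraries, as in 20.8% of all tested genes, and in 2, *S1pr1* and *Il7r* (log2 fold changes 0.83 and 0.70, FDR of at least 0.496), both were above, as in 22.8%. The log2 fold change of *Il7r* was 0.33 without replicate 2 labelled TopBP1cKO. That of *S1pr1* was 0.55 without replicate 1 labelled TopBP1cKO and 0.53 without WT replicate 2. *Klf2*, a quiescence factor of leukocytes, had 123, 133, 97.8 and 61.6 CPM (log2 fold change −0.68, SE 0.21; FDR = 0.346). *Bcl2l11*, which encodes the pro-apoptotic protein BIM, had 46.1, 41.6, 33.0 and 25.6 CPM (log2 fold change −0.58, SE 0.16; FDR = 0.337), and *Ccng2*, an atypical cyclin of quiescent cells, had 46.6, 43.5, 35.2 and 31.2 CPM (log2 fold change −0.44, SE 0.14; FDR = 0.351). The other 2 were *Cited2* (FDR = 0.365) and *Pik3ip1* (FDR = 0.347), and DESeq2 called *Pik3ip1* at FDR = 0.0395. Without replicate 2 labelled TopBP1cKO, *Klf2* had a log2 fold change of −0.39 and *Pik3ip1* of −0.63. The factors themselves had log2 fold changes of −0.11 for *Foxo1*, −0.23 for *Foxo3* and −0.28 for *Foxo4* (FDR of at least 0.645). In the same order these were −0.18, −0.39 and −0.53 without replicate 1 labelled TopBP1cKO, and −0.05, −0.09 and −0.08 without replicate 2.

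The relatives of *Tsc22d3* and *Txnip* gave uneven values, and none passed FDR < 0.05. *Tsc22d1* had 91.6, 87.6, 70.4 and 76.4 CPM (log2 fold change −0.29, SE 0.12; FDR = 0.459) and *Tsc22d2* had 45.9, 41.0, 40.2 and 45.3 CPM (log2 fold change −0.02, SE 0.14). Replicate 2, the lowest library for *Tsc22d3*, was not the lowest for either. *Arrdc4*, the arrestin nearest to *Txnip*, had 98.5, 96.1, 78.4 and 57.1 CPM (log2 fold change −0.52, SE 0.16; FDR = 0.351), the same order of libraries as *Txnip*, or −0.32 without replicate 2 labelled TopBP1cKO, and *Arrdc3* had 11.2, 12.4, 14.7 and 15.6 CPM (log2 fold change 0.36, SE 0.18; FDR = 0.538). Of the 2 remaining alpha-arrestins, *Arrdc1* and *Arrdc2*, neither was separated between the groups.

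Among circadian clock genes other than *Per1*, 11 of 15 were tested, 0 passed FDR < 0.05, and the median log2 fold change was −0.05, or −0.14 both without replicate 1 and without replicate 2 labelled TopBP1cKO. *Nr1d2*, a clock repressor, had 14.7, 17.3, 10.2 and 10.4 CPM (log2 fold change −0.63, SE 0.19; FDR = 0.346), and *Bhlhe40*, another repressor, had 8.76, 11.4, 15.4 and 16.9 CPM (log2 fold change 0.68, SE 0.21; FDR = 0.347). The core activators *Clock* and *Bmal1* overlapped between the groups. Of the ATF4 stress genes, which share *Ddit4* as a target, 4 of 6 were tested, 0 passed FDR < 0.05 and 0 an unadjusted P < 0.05, with a median log2 fold change of 0.01 (−0.11 and 0.10 without replicates 1 and 2 labelled TopBP1cKO), and *Atf4* had 159, 165, 160 and 142 CPM.

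Genes known to respond to tissue dissociation, several of them immediate early genes, gave the lowest median of the pathway lists with all 4 libraries, though not without replicate 2 labelled TopBP1cKO, where the 2 tested relatives of *Tsc22d3* had −0.24. All 11 were tested, *Fosb* was lower at FDR < 0.05, 6 were lower and 0 higher at an unadjusted P < 0.05 (3.77% and 6.95% of all tested genes), and the median log2 fold change was −0.50, or −0.87 without replicate 1 and −0.22 without replicate 2 labelled TopBP1cKO. *Fosb*, an AP-1 subunit, had 331 and 346 CPM in WT and 177 and 164 CPM in the libraries labelled TopBP1cKO (log2 fold change −0.99, SE 0.12; FDR = 0.0421). Unlike *Tsc22d3*, *Fosb* was at nearly the same level in both of these libraries. It was not called under upper quartile normalization or without either WT library. *Fos* had 487, 402, 275 and 244 CPM (FDR = 0.232) and *Jun* 179, 168, 114 and 113 CPM (FDR = 0.237), and DESeq2 called both. The HSP70 genes nearest in pattern to *Tsc22d3* are also on this list. The part of sample handling in the level of *Tsc22d3* was not tested.

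**Figure D5:**
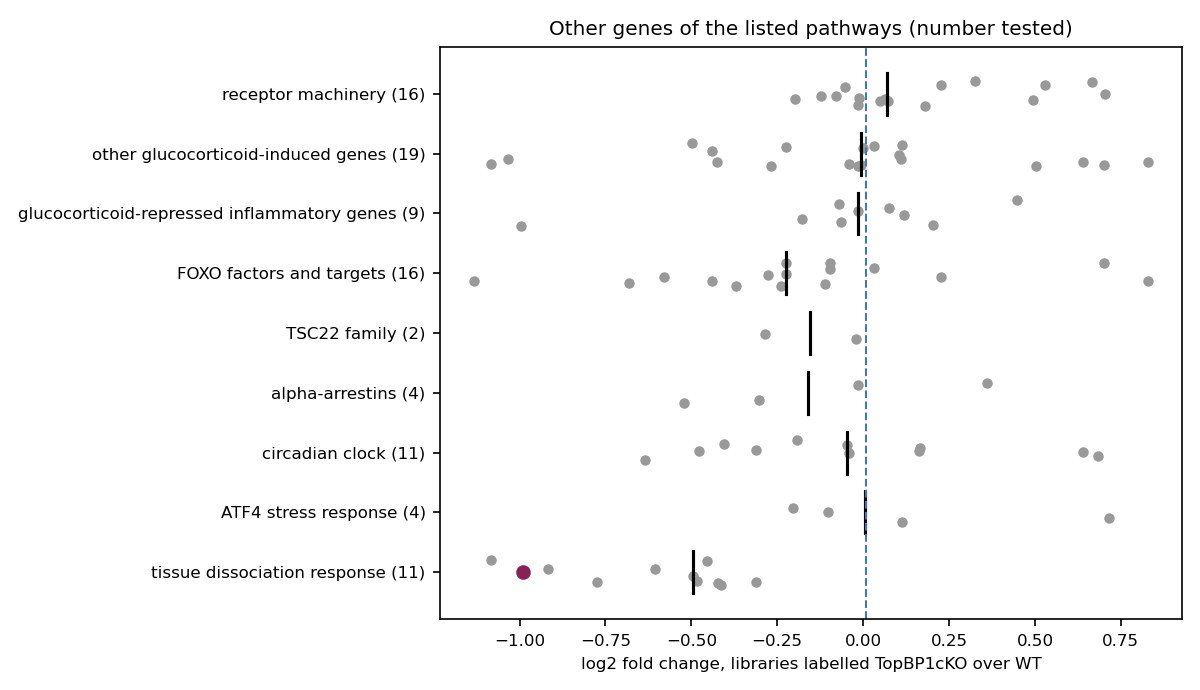
Log2 fold change of each tested gene in the listed pathways, libraries labelled TopBP1cKO over WT, with the 10 genes of the set left out, points spread vertically to show overlap, a black bar at the median of each list and a dashed line at the median of all tested genes (0.01). The 1 gene called at FDR < 0.05, *Fosb*, is the large dark point, and the medians run from −0.50 for tissue dissociation genes to 0.07 for the receptor machinery.

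The makeup of the sorted cells was read from marker genes. Markers of EPs and cDC1s were present in all libraries. *Itgax*, which encodes CD11c, had 620, 614, 690 and 649 CPM, *Kit*, which encodes CD117, had 481, 475, 395 and 383 CPM, and *Cd24a* had 972, 926, 885 and 756 CPM, while *Xcr1*, a cDC1 marker, had 734, 753, 626 and 701 CPM. None of the 11 genes of this list passed FDR < 0.05, and 1, *Kit*, was lower at an unadjusted P < 0.05 (log2 fold change −0.30, SE 0.12; FDR = 0.436), against 3.77% of all tested genes. Of the 11, 10 had a fold change below 0 and 6 had both libraries labelled TopBP1cKO below both WT libraries (20.8% of all tested genes), with a median log2 fold change of −0.18. The median was −0.21 without replicate 1 and −0.10 without replicate 2 labelled TopBP1cKO. The list was uneven in replicate 2 labelled TopBP1cKO, the library with the lowest *Tsc22d3*. There *Cd34*, *Batf3* and *Irf8* were at 49.1%, 67.6% and 78.0% of the WT mean, and *Cd24a* and *Kit* at 79.6% and 80.0%. *Clec9a*, *Flt3*, *Xcr1*, *Zbtb46* and *Id2* were at 86.3%, 86.7%, 94.3%, 95.2% and 99.9%, and *Itgax* at 105%. The part of these markers in the values of the 10 genes was not tested.

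Cell cycle genes and neutrophil genes gave the highest medians of all lists with all 4 libraries. The 12 cell cycle genes summed to 514, 481, 624 and 1790 CPM, and their most abundant gene *Mki67* had 216, 202, 253 and 785 CPM (log2 fold change 1.31, SE 0.43; FDR = 0.360). All 12 were higher at an unadjusted P < 0.05, as were 6.95% of all tested genes, 0 passed FDR < 0.05 in the quasi-likelihood test of edgeR, and 3 did by DESeq2 and 3 by the likelihood ratio test. Their median log2 fold change was 1.28, or 0.33 without replicate 2 labelled TopBP1cKO, below the medians of 1.58 for T cell, 1.41 for mast cell and basophil, 1.16 for NK and innate lymphoid cell and 0.39 for B cell genes in the same fit. The library with the highest cell cycle genes was thus the library with the lowest *Tsc22d3*. The 10 neutrophil genes summed to 797, 749, 2200 and 2213 CPM, led by *Ngp* at 251, 249, 706 and 690 CPM, and 5 rose at FDR < 0.05 in the quasi-likelihood test, as did 0.0807% of all tested genes (7 by DESeq2, 8 by the likelihood ratio test and 5 by limma-voom), with a median log2 fold change of 1.43. The sums were thus alike in the libraries labelled TopBP1cKO, between which *Tsc22d3* differed, though single genes were not all alike, with *Camp* at 150 and 103 CPM and *Mmp8* at 8.60 and 16.6 CPM. The part of proliferation and of neutrophil RNA in the values of the 10 genes was not tested.

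Markers of other cells were low in most cases. T cell genes summed to 192, 220, 175 and 222 CPM, nearly all from *Cd8a*, which cDC1s also express, at 179, 206, 148 and 205 CPM, while *Cd3d* and *Cd3e* had at most 1.58 CPM. The sum hides *Lck*, *Thy1* and *Cd3g*, which had 6.10, 6.96 and 2.69 CPM in replicate 1 labelled TopBP1cKO and at most 2.85 CPM in any other library. B cell genes summed to 30.3, 25.6, 35.2 and 30.5 CPM, led by *Ms4a1*, and NK and innate lymphoid cell genes to 15.1, 11.2, 28.9 and 14.3 CPM, led by *Nkg7*. pDC genes summed to 200, 205, 166 and 163 CPM, led by *Tcf4*, with *Klk1* at 0 in 3 libraries. Macrophage genes summed to 17.9, 18.1, 14.8 and 15.6 CPM, led by *Vcam1*, and mast cell and basophil genes to 16.3, 15.9, 48.5 and 28.8 CPM, led by *Mcpt8*. Erythroid genes summed to 15.9, 13.0, 17.5 and 18.0 CPM, led by *Hba-a1*. No gene of these 7 lists passed FDR < 0.05 in the quasi-likelihood test, 1 mast cell and basophil gene did by DESeq2 and by the likelihood ratio test, and their median log2 fold changes were 1.13, 0.41, 0.72, −0.29, −0.40, 0.97 and 0.38 in the same order, at low counts for most genes. Without replicate 1 labelled TopBP1cKO, the T cell, B cell, NK and innate lymphoid cell, and mast cell and basophil medians were 0.25, 0.10, 0.08 and 0.53. The macrophage median was −0.72 without replicate 2 labelled TopBP1cKO and −0.27 without WT replicate 1. The NK and innate lymphoid cell median was 0.32 without WT replicate 2. At an unadjusted P < 0.05, 2 of 5 tested T cell, 2 of 5 NK and innate lymphoid cell and 4 of 5 mast cell and basophil genes were higher (6.95% of all tested genes), and 2 of 4 pDC genes and 1 of 5 macrophage genes were lower (3.77% of all tested genes).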

How the data were processed

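The deposited file of each of the 4 libraries holds whole-number read counts for 137259 transcript rows, with gene symbols and, in all but 2558 placeholder rows, RefSeq accessions, without normalization or columns of the authors' own comparisons. The submitters' processing notes name fastp, STAR, Salmon, GATK and GRCm39, without roles or versions, and the methods do not describe the counting. Whether molecular identifiers were counted is not given in the sources used here. The labels name TaKaRa RNAiso Plus for RNA extraction, where the methods name a RNeasy Mini Kit, and the CORALL V2 kit for the libraries.

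Counts were summed per gene symbol, and 19815 of 40213 symbols had a count. After filterByExpr of edgeR 4.0.16 (R 4.3.3), 12393 remained. Effective library sizes came from TMM, the groups were compared by the two-sided quasi-likelihood test (glmQLFTest), and FDR is the Benjamini–Hochberg value over these genes, with a threshold of 0.05. Each SE divides the log2 fold change by the root of F. Libraries of a group varied by a biological coefficient of variation of 15.2%. Library totals from 14561583 to 15193831 make depth much alike, and 3 counts correspond to about 0.2 CPM. Chi-square over its degrees of freedom was 11.9 or more for every pair of libraries, so none was deposited in duplicate. The test was tested on simulated data.

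The genes named were the 10 genes in every library, *Topbp1*, the genes of 19 lists where a list is reported, and the 5 genes nearest in pattern to *Tsc22d3* with a mean of at least 200 counts. The genes and lists were chosen with earlier results of these data known, and *Bcl6*, *Il7r*, *Irs2*, *Arrdc2*, *Per2* and *Mertk* stand on more than 1 list. Listed symbols without a row were not analysed here, and 1 listed gene is not reported here. Alternatives were DESeq2 1.42.0 size factors and Wald test, upper quartile normalization, the edgeR likelihood ratio test, limma-voom (limma 3.58.1), no low-count filter, a filter of 10 counts in each library, thinning to the smallest total, the most abundant transcript alone, a replicate block and leaving out each library. CPM by library totals were added after the values were seen. Promoter sequences and the start sites of their windows are RefSeq's (GRCm38.p6). The other transcript starts given are GENCODE's (GRCm38). Counted transcripts were linked to these starts by their identifiers, and no GRCm39 positions were used. For *Tsc22d3* the counted version was NR_122039.2, while the GRCm38 annotation lists NR_122039.1.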

Additional observations from a re-analysis of the deposited data

How the results depend on the processing

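The log2 fold change of *Tsc22d3* kept its direction under all alternatives, between −1.08 and −0.92 with other normalizations, tests, filters and depth and for the most abundant transcript, and between −1.74 and −0.43 when each library was left out. The median over the 10 genes ran from −0.30 to −0.27, and from −0.65 to −0.29 when each library was left out. *Klf9* and *Zbtb16* changed sign under some settings, and these, *Fkbp5* and *Ddit4* did so when a library was left out. The number of genes called at FDR < 0.05 was 13 by the quasi-likelihood test, 137 by DESeq2, 234 by the likelihood ratio test and from 9 to 19 under the remaining alternatives without a block. Leaving out each library gave from 1 to 2625, with 2625 of 12788 tested without replicate 1 labelled TopBP1cKO, 223 of 12804 without replicate 2, 12 without WT replicate 1 and 1 without WT replicate 2. In these fits the lone library is assumed to vary like the other group. Of the 10 genes, 0 were called in all settings with the 4 libraries and no block, and from 0 to 5 when each library was left out, with 5 without replicate 1 labelled TopBP1cKO and 1 without replicate 2, to be set beside the 2625 and 223 genes called in those fits. As this contrast led to the choice of the set, nothing is read from these counts. Of the 87 listed pathway genes, 1 was called, against 0 under upper quartile normalization, 6 by DESeq2, 5 by the likelihood ratio test and from 0 to 38 when each library was left out, with 38 without replicate 1 labelled TopBP1cKO, 7 without replicate 2 and 0 without either WT library. The cause was not tested. Whether replicate numbers pair the libraries could not be settled. The deviations of same-numbered libraries correlated at −0.0147 across genes. With 2 libraries per group the deviations mirror each other, so this value cannot exclude pairing. With the replicate block, 504 genes were called, 2 of the 10 and 11 listed pathway genes. Depth limits statements on *Klf9* and *Zbtb16*, with at most 38 counts in any library.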
